A study of Mus musculus with 4 samples.

Results

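CXCL12 and CXCL16 are the ligands of a pair of chemokine axes that place leucocytes in tissue, and the 5 genes described here are the ligands Cxcl12 and Cxcl16 with their receptors Cxcr4, Ackr3 and Cxcr6. They were taken by symbol from a matrix of single cells of 4T1 tumours, in which all 5 genes were present among 55450 genes. None of them was used to name a cell type. CXCL12 (SDF-1) is secreted mainly by stromal cells and retains CXCR4-bearing leucocytes where it is made, as in the bone marrow niche. ACKR3 (CXCR7) also binds CXCL12 but couples to arrestin and takes the ligand up for degradation, so it is regarded as a scavenger. CXCL16 is made as a membrane-anchored chemokine, is shed by metalloproteases of the ADAM family, and acts on CXCR6, a receptor of effector and tissue-resident T cells. 

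Droplet-based single-cell RNA sequencing (10x Genomics) counts transcript molecules by unique molecular identifiers (UMIs). The 4T1 line is a mammary carcinoma of BALB/c mice, and 1000000 cells in 25 µl PBS were placed in the right flank of females aged 6 to 8 weeks. Each mouse had an intravenous injection on day 7 and near-infrared (NIR) light of 980 nm for 5 min a day from day 8 to day 10, at a power density of 1.0 W cm-2 and with the PBS mice included, and tumours were taken on day 13. By their labels, 2 samples were injected with PBS and 1 with TIOs (TIOs+NIR3), macrophage-derived carriers killed in liquid nitrogen that hold light-responsive particles, while the last sample has conflicting labels and was assigned to no group. The sources used here do not give the number of mice in a sample.

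The cells carry 4 barcode suffixes, called libraries 1 to 4 here. No source used here ties a library to a sample, so the treatments were not compared, and every value is a description of 1 pooled sample and of 4 libraries of unknown treatment. Of 33064 barcodes, 32133 passed the filters (6783 to 8889 per library), with 69255999 to 108646352 UMIs per library before filtering. The study states 15603 cells after the same limits on genes and mitochondrial UMIs, for its PBS and TIOs+NIR3 groups. The cells kept here are those of all 4 libraries, so the counts may cover unlike sets of samples. The median depth was 11698 UMIs per cell in library 1, 2641.5 in library 2, 2695 in library 3 and 7182 in library 4. The libraries shared 95 barcodes, 11 to 22 for each pair. Although the cells had been sorted for CD45, 24.97% of them fell into types that are not leucocytes, from 10.81% in library 4 to 51.84% in library 1, and Ptprc, which encodes CD45, stood at 12.3 counts per 1000000 UMIs (CPM) in fibroblasts against 708.4 CPM in neutrophils. Of 122 marker genes, 113 were highest in the type they mark, which the naming of the types by these markers largely fixes. Library 1 held 3738 of the 3943 tumour cells and 170 of the 3521 fibroblasts, and library 4 held 3419 of the 4360 monocytes. Intervals in brackets are exact 95% intervals for counting error alone, which leave out the spread between animals.

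Across all kept cells, Cxcl12 gave 109323 UMIs in 22.72% of the cells and Cxcl16 gave 36936 UMIs in 34.05%. Among the receptors, Ackr3 gave 26701 UMIs in 19.08% of the cells, Cxcr4 gave 20530 UMIs in 31.84%, and Cxcr6 gave 2084 UMIs in 2.315%. On GRCm38 (GENCODE vM21), Cxcl12 (ENSMUSG00000061353) lies on the forward strand at chr6:117168535-117181367 and Cxcl16 (ENSMUSG00000018920) on the reverse strand at chr11:70453983-70459984. The genes of both CXCL12 receptors are on chromosome 1, Ackr3 (ENSMUSG00000044337) at chr1:90203980-90216751 on the forward strand and Cxcr4 (ENSMUSG00000045382) at chr1:128588199-128592293 on the reverse strand. Cxcr6 (ENSMUSG00000048521) lies on the forward strand at chr9:123806475-123811760.

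The 250 bases upstream of the transcription start are shown for Cxcl12 and Ackr3, which had fibroblasts as their highest type, and for Cxcr4, the receptor of leucocytes, to set the windows of a ligand and its receptors side by side. The sequences are those of RefSeq on GRCm38.p6, written 5′ to 3′ on the strand of the gene, with capitals for matches to TATAAA or GCGTG on either strand. The windows are chr6:117168285-117168534 (+) for Cxcl12, chr1:90203730-90203979 (+) for Ackr3 and chr1:128592300-128592549 (-) for Cxcr4. Of the 5 genes, 4 were matched in the promoter table.
Cxcl12: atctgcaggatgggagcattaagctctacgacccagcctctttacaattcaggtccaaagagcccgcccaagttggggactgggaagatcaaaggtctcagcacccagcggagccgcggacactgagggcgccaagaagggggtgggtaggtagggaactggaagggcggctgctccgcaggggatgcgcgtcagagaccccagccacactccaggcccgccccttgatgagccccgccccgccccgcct
Ackr3: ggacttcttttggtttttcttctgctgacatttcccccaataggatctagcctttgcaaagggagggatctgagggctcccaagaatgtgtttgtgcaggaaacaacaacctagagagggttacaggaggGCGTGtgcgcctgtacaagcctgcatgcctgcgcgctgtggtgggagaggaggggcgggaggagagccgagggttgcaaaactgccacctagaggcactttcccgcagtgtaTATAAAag
Cxcr4: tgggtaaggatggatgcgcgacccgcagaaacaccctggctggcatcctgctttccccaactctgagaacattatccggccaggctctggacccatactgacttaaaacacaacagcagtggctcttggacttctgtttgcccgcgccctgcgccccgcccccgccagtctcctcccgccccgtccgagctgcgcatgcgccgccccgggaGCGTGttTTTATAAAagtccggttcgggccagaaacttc

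The Cxcl12 window held 14 CG pairs and none of the 3 motifs searched, TATAAA and the pentamers ACGTG and GCGTG. The Cxcr4 window was the richest of the 4 in CG pairs with 19, more than 80.27% of the 32851 promoter windows searched, and it held GCGTG once and TATAAA in 2 overlapping matches that lie on opposite strands. Ackr3 had 7 CG pairs, near the median of 6 over all windows, with 1 match each to TATAAA and GCGTG. Cxcr6 had 3 CG pairs and none of these motifs. TATAAA, the core of the TATA box, was in 12.37% of all windows, ACGTG, the core of the hypoxia response element, in 16.57%, and its variant GCGTG in 28.16%. These matches describe letters and not bound sites.

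Cxcl12 was a transcript of the stroma. Fibroblasts held 85.67% of its UMIs, at 839.8 CPM [834.5 to 845.2], and 91.68% of the 3521 fibroblasts had at least 1 UMI. Endothelial cells followed with 271.3 CPM [258.1 to 285], and pericytes or smooth muscle cells with 103.5 CPM. Cells that carried markers of 2 lineages, which were left out of the types, held a further 8.338% of the Cxcl12 UMIs. In fibroblasts the level was 115.9 CPM in library 1 [103.3 to 129.6], 980.7 CPM in library 2, 640.3 CPM in library 3 and 962.2 CPM in library 4. Library 1 was thus far below the others, and the intervals of libraries 2 and 4 overlapped. In the same libraries the share of fibroblasts with a Cxcl12 UMI was 47.65%, 92.37%, 92.88% and 97.4%.

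The order of fibroblasts and endothelium was not the same in every library. Endothelial cells had 280.4 CPM of Cxcl12 in library 1, 303.5 CPM in library 2 and 81.32 CPM in library 3. The ratio of fibroblasts to endothelium was 0.4133 [0.3364 to 0.5102] in library 1, 3.231 [3.051 to 3.424] in library 2 and 7.873 [6.288 to 9.996] in library 3, so that library 1 had the reverse order. Library 4 held 16 endothelial cells, too few for a value. Pericytes had 92.05 CPM in library 2 and 118.4 CPM in library 3.

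**Figure D1:**
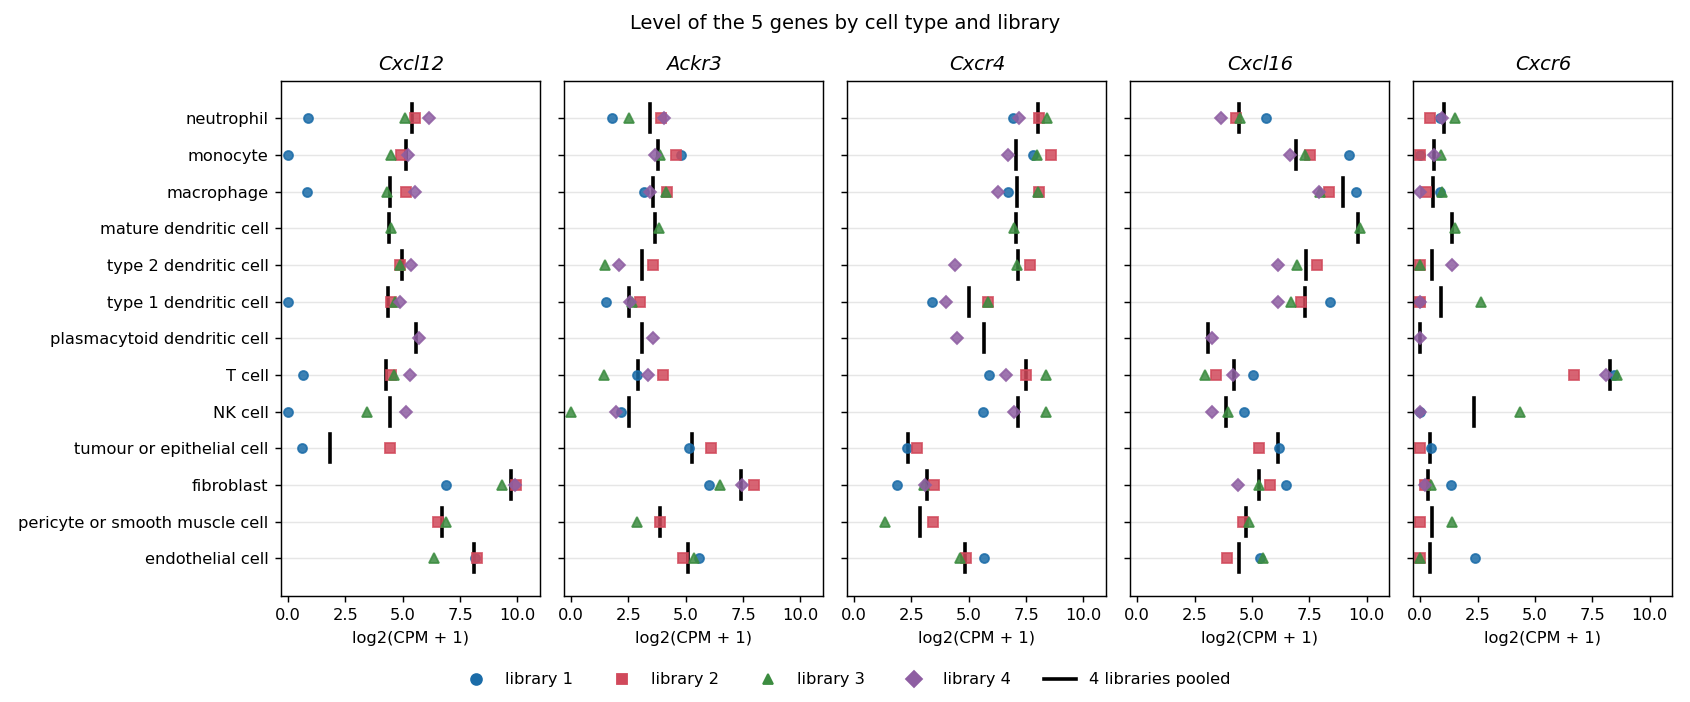
Level of each of the 5 genes in 13 cell types, as log2(CPM + 1) of the summed UMIs. Points are libraries with at least 20 cells of the type and black bars the 4 libraries pooled; Cxcl12 and Ackr3 are highest in fibroblasts, Cxcr4 is spread over the leucocytes, Cxcl16 is highest in mature dendritic cells and macrophages, and Cxcr6 stands apart in T cells at 310.4 CPM pooled.

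Within the fibroblasts, cells with Lrrc15, a marker of tumour myofibroblasts, were set against cells with Dpt (dermatopontin, a marker of matrix-rich fibroblasts of normal tissue) but no Lrrc15. Cells with Dpt alone had 1133.4 CPM of Cxcl12 in library 2, 686.5 CPM in library 3 and 1101.8 CPM in library 4. The Lrrc15 cells had 889.3, 678.2 and 619.8 CPM in these libraries and 98.27 CPM in library 1. The ratio of the Dpt cells to the Lrrc15 cells was 1.274 [1.248 to 1.302] in library 2 and 1.778 [1.727 to 1.83] in library 4, and 1.012 [0.981 to 1.045] in library 3, where the interval included 1. Fibroblasts with both genes at 0 had the lowest level in libraries 2 and 3, at 562.7 and 265.9 CPM, and 682 CPM in library 4; their median depth of 11701.5 UMIs was below the 30745 UMIs of the Lrrc15 cells.

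The endothelium was split by markers of its states, with the libraries pooled because the cells were few. Arterial endothelium had 549.8 CPM [498.2 to 605.3] of Cxcl12 in 48 cells, tip cells, which lead vessel sprouts, 284.9 CPM in 59 cells, and venous endothelium 53.36 CPM [41.9 to 66.99] in 75 cells. Lymphatic endothelium had 67.31 CPM in 21 cells, and 74 endothelial cells without a state had 379.4 CPM. In library 2, the only one with enough cells of both, arterial cells had 583.5 CPM and venous cells 66.01 CPM. Cxcl12 was thus an arterial more than a venous transcript in this endothelium.

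**Figure D2:**
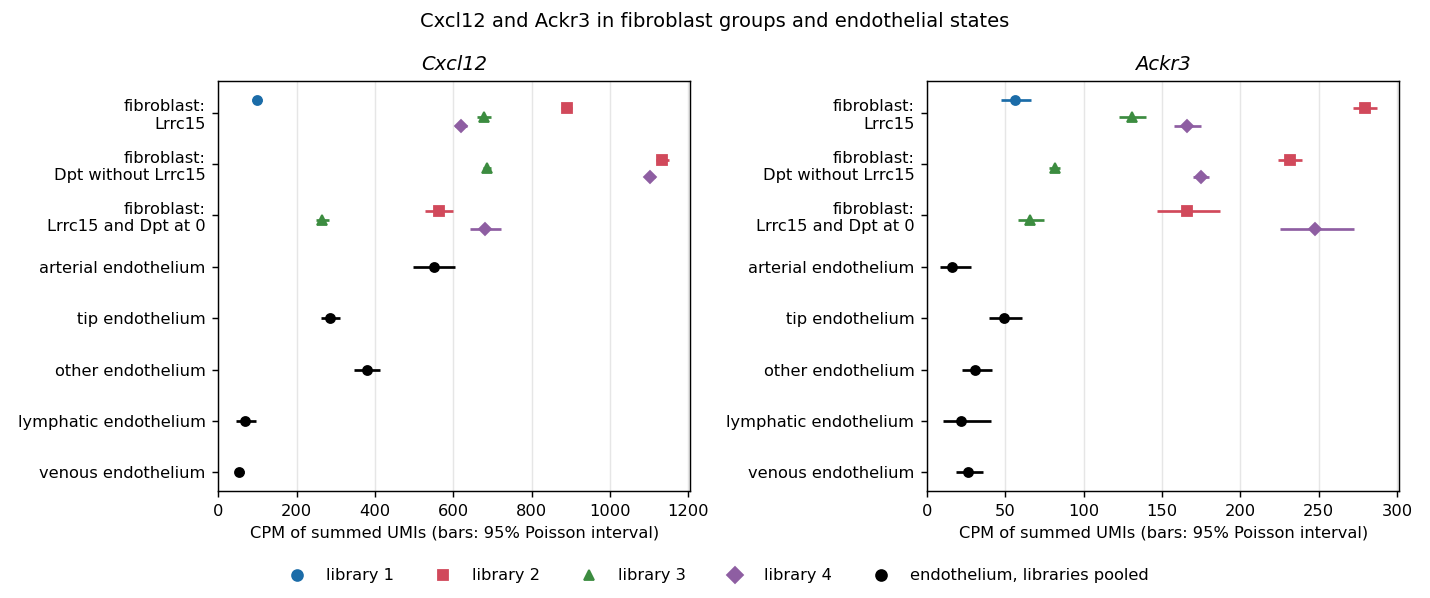
CPM of Cxcl12 (left) and Ackr3 (right) in fibroblast groups by library and in endothelial states with the libraries pooled, with 95% Poisson intervals; groups under 20 cells in a library are not drawn. Arterial endothelium is the highest endothelial state for Cxcl12 at 549.8 CPM and the lowest for Ackr3 at 15.9 CPM.

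Leucocytes and tumour cells also had low levels of Cxcl12, which differed more between libraries than between leucocyte types. Neutrophils had 0.7979, 45.12, 32.7 and 68.89 CPM in libraries 1 to 4, macrophages 0.7689, 34.71, 19.11 and 45.09 CPM, and T cells 0.5762, 21.21, 23.35 and 38.61 CPM. Library 1 was the lowest in 6 of the 6 types that all 4 libraries held. Tumour cells had 0.5146 CPM in library 1 and 20.42 CPM in library 2. A matched value is the number of Cxcl12 UMIs per 100 UMIs of 5 fibroblast genes (Col1a1, Col1a2, Col3a1, Dcn and Sparc), since RNA that leaks from lysed fibroblasts would carry all of them in 1 ratio. This value was 0.232, 1.52, 2.587 and 3.519 in the fibroblasts of libraries 1 to 4. In neutrophils it was 0.3058, 2.221, 3.63 and 5.362, in macrophages 0.5583, 1.833, 2.163 and 4.698, and in T cells 0.3049, 1.673, 3.044 and 4.255. In these 3 types the order over the libraries was that of the fibroblasts, although the library 1 values of neutrophils and T cells rested on 1 Cxcl12 UMI each. Type 1 dendritic cells had 3.644 [1.647 to 7.03] in library 3 and 3.448 [2.171 to 5.219] in library 4, with overlapping intervals. Neutrophils lay above their library's fibroblasts with intervals apart in library 2 [1.955 to 2.513], library 3 [3.149 to 4.165] and library 4 [4.673 to 6.128]. Endothelial cells stood far above in library 1 with 4.041 and in library 2 with 5.62, and below in library 3 with 2.026. The part that free RNA has in the leucocyte levels was not tested. The share with a Cxcl12 UMI was 7.755% in neutrophils at a median of 1815 UMIs and 23.62% in monocytes at a median of 7952.5 UMIs, and after each cell was thinned to 1000 UMIs it was 4.091% and 3.95%, against 45.67% in fibroblasts.

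**Figure D3:**
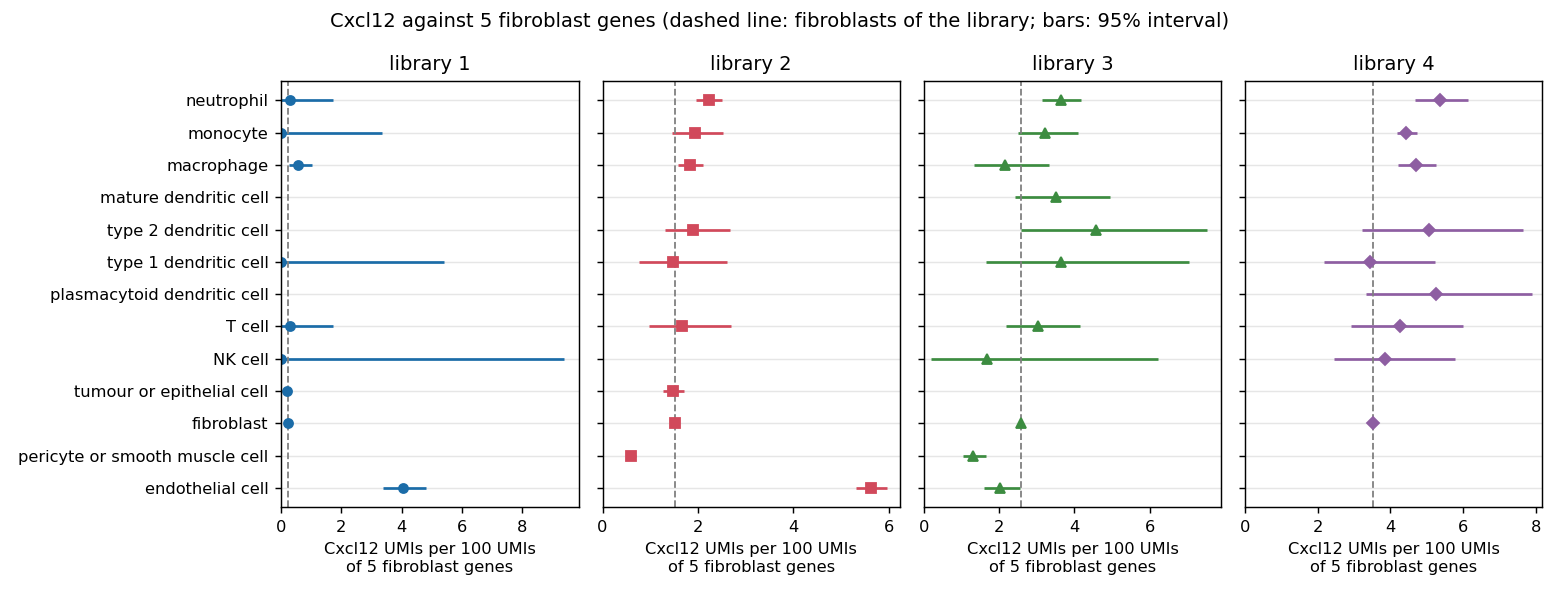
Cxcl12 UMIs per 100 UMIs of 5 fibroblast genes in each cell type, 1 panel per library, with 95% intervals and a dashed line at the value of that library's fibroblasts. Most leucocyte types lie on or to the right of the line, endothelial cells of libraries 1 and 2 far to its right at 4.041 and 5.62, and pericytes of libraries 2 and 3 to its left.

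Ackr3, the scavenger of CXCL12, had the same leading type as its ligand. Fibroblasts held 70.71% of its UMIs at 169.3 CPM [166.9 to 171.7], and 75.06% of them had a UMI. Their level was 63.98 CPM in library 1 [54.72 to 74.35], 253.7 CPM in library 2, 89.52 CPM in library 3 and 176.4 CPM in library 4, with intervals that did not overlap. Library 1 was the lowest, as for Cxcl12, but library 3 lay closer to library 1 than to library 4. Ackr3 did not follow Cxcl12 over the fibroblast groups. The ratio of Dpt cells to Lrrc15 cells was 0.8287 in library 2 and 0.6221 in library 3, below 1, and 1.055 [0.9941 to 1.12] in library 4.

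Tumour cells, which held almost no Cxcl12, were next for Ackr3. They had 34.43 CPM [33.12 to 35.77] in library 1 and 67.46 CPM [62.01 to 73.26] in library 2, and gave 11.89% of its UMIs. Their pooled level of 37.71 CPM was below the 75.27 CPM over all cells, so they gave less of Ackr3 than of all UMIs. Non-cycling tumour cells were above cycling ones, with a ratio of 1.317 [1.213 to 1.431] in library 1 and 1.234 [1.034 to 1.475] in library 2. Endothelial cells had 46.04, 28.37 and 39.59 CPM in libraries 1 to 3, and their order with tumour cells changed: the ratio of tumour to endothelium was 0.7478 [0.4928 to 1.195] in library 1 and 2.378 [1.94 to 2.937] in library 2. Tip cells had 49.34 CPM of Ackr3, venous cells 25.96 CPM and arterial cells 15.9 CPM, which is another order than that of Cxcl12. Among the leucocytes, monocytes had 12.81 CPM, macrophages 10.77 CPM, neutrophils 9.98 CPM and T cells 6.572 CPM. Per 100 UMIs of the fibroblast genes, tumour cells had 11.87 and 4.874 Ackr3 UMIs in libraries 1 and 2 against 0.1281 and 0.3932 in the fibroblasts, so tumour cells held Ackr3 well above the ratio of their library's fibroblasts. Macrophages also lay above the fibroblasts on this measure, with 5.807, 0.9071, 1.854 and 1.027 against 0.1281, 0.3932, 0.3617 and 0.6453. Monocytes had 14.29 [7.894 to 24.23], 1.531, 2.047 and 1.427 in libraries 1 to 4, and neutrophils 0.9174, 0.7059, 0.5333 and 1.199. T cells had 3.354, 1.181, 0.2227 and 1.001, below the fibroblasts in library 3. A value above the fibroblasts was thus not particular to tumour cells.

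Ackr3 was detected more often in fibroblasts with Cxcl12 than in those without. After thinning to 1000 UMIs, which left 3464 fibroblasts, Ackr3 was detected in 20.99% of the 1582 cells with Cxcl12 and in 13.66% of the 1882 cells without. The values were 25.56% and 21.19% in library 2, 14.45% and 6.961% in library 3, and 20.89% and 13.7% in library 4. Library 1 had 14 cells with Cxcl12, too few to read. Fibroblasts with Lrrc15 and Dpt at 0 went the other way in library 2, with 18.42% of 38 cells and 20% of 70. So did endothelial cells pooled, with 2.083% of 48 and 5.357% of 224. No intervals were computed for these shares. Over 41 profiles, each a cell type in a library with at least 20 cells, Cxcl12 and Ackr3 levels had a Pearson r of 0.69. This is a description, since profiles of a library share its depth and background.

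Cxcr4, the signalling receptor of CXCL12, was spread over the leucocytes. Neutrophils had 259.2 CPM [251.6 to 267.1], T cells 176.5 CPM [165.2 to 188.3] and NK cells 140 CPM [120 to 162.5]. T and NK cells were not apart in any of the 3 libraries that held both. Type 2 dendritic cells, macrophages, monocytes and mature dendritic cells followed within 130.6 to 138.7 CPM, with pooled intervals that overlapped. Inside the libraries, type 2 dendritic cells were below macrophages in 3 of 3, with 203.2, 135.5 and 19.82 CPM in libraries 2 to 4 against 263, 260.3 and 75.73 CPM. Type 1 dendritic cells had 30.71 CPM and endothelial cells 27.57 CPM. Fibroblasts had 8.169 CPM and tumour cells 4.159 CPM. Fibroblasts, the leading type for Cxcl12, thus held little of its signalling receptor, while endothelial cells, second for Cxcl12, held more of it. By number of UMIs, monocytes gave 23.16% of Cxcr4, neutrophils 21.13% and macrophages 17.91%. Smaller types with high levels were basophils with 223.7 CPM in 57 cells and B or plasma cells with 525.3 CPM in 28 cells.

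The Cxcr4 level of a type differed between libraries. In neutrophils it was 118.9 CPM in library 1 [100.6 to 139.6], 263.3 CPM in library 2 [250.2 to 277], 341.1 CPM in library 3 [327 to 355.7] and 145.6 CPM in library 4 [132.9 to 159.2]. Monocytes had 221.2, 377.3, 252.2 and 102.8 CPM, macrophages 102.2, 263, 260.3 and 75.73 CPM, and T cells 57.62, 177.2, 333.2 and 97.66 CPM. Of the 6 types held by all 4 libraries, Cxcr4 was highest in library 2 in 4 and in library 3 in 2, and lowest in library 1 in 4 and in library 4 in 2. The finer groups had another order. Of the 10 held by all 4 libraries, Cxcr4 was lowest in library 4 in 7 and in library 1 in 3. CD4 T cells were highest in library 1. Of the 358 T cells of library 1, 230 were CD8 T cells, a group low in Cxcr4. The order of neutrophils and monocytes also turned, with a ratio of 0.5375 [0.4226 to 0.6843] in library 1 and 0.698 [0.6389 to 0.7631] in library 2, against 1.353 [1.249 to 1.466] in library 3 and 1.417 [1.285 to 1.561] in library 4. The pooled lead of neutrophils thus did not hold in libraries 1 and 2. The share of neutrophils with a Cxcr4 UMI was 29.1%, and 18.63% after thinning, which kept 7798 of 8330 neutrophils; in thinned fibroblasts it was 1.01%.

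Neutrophils were divided by Retnlg, a gene of mature circulating neutrophils, and Cd274, which encodes PD-L1. Cells with Retnlg had 91.75, 250.4, 286 and 121.5 CPM of Cxcr4 in libraries 1 to 4, and cells with neither gene had 178.1, 310.3, 384.6 and 171.6 CPM. The ratio of the latter to the former was 1.941 [1.303 to 2.867], 1.239 [1.093 to 1.407], 1.345 [1.22 to 1.483] and 1.413 [1.164 to 1.717], above 1 in all 4 libraries. Cells with Cd274 and no Retnlg had 140.8, 221.7, 385.7 and 135.5 CPM, and their ratio to the Retnlg cells had an interval above 1 in library 3 alone. Within the endothelium, Cxcr4 was at 38.73 CPM in tip cells, 33.12 CPM in arterial cells and 10.1 CPM in venous cells.

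**Figure D4:**
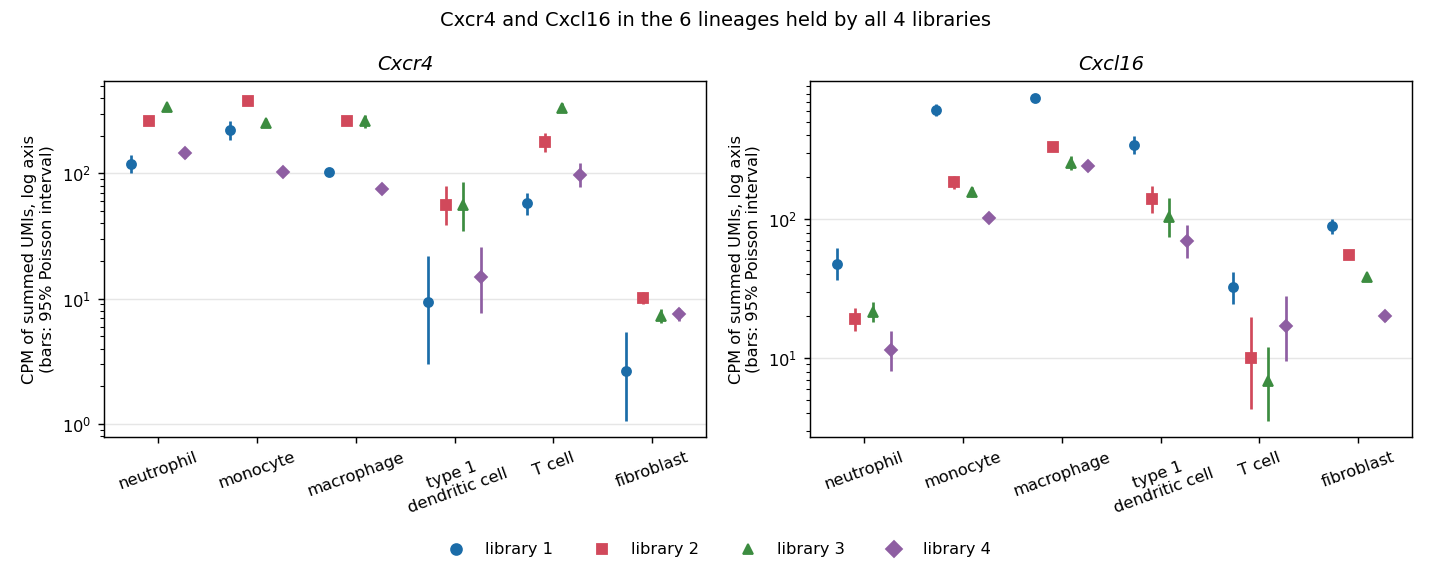
CPM of Cxcr4 (left) and Cxcl16 (right) on log axes in the 6 cell types with at least 20 cells in all 4 libraries, with 95% Poisson intervals. Cxcr4 is highest in library 2 or 3 in each type drawn, though not in CD4 T cells taken alone. Cxcl16 is highest in library 1 in each type drawn, though not in neutrophils with Cd274 and no Retnlg taken alone.

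Cxcl16 was highest in mature dendritic cells and macrophages, among the types with at least 100 cells. Mature dendritic cells, which carry antigen to lymph nodes and express Ccr7, had 779.6 CPM [740.3 to 820.5], and 87.39% of them had a UMI. Of these 222 cells, 189 were in library 3, where the level was 829.4 CPM [785.2 to 875.4], and no other library held 20 of them. Without library 3 the remaining 33 cells had 510.4 CPM, so the lead over macrophages rested on library 3. Macrophages gave the most UMIs, 36.67% of Cxcl16, at 497.7 CPM [489.4 to 506.2]. Type 2 dendritic cells had 165.3 CPM and type 1 dendritic cells 156.2 CPM, with overlapping intervals, and monocytes had 120.1 CPM. Inside each of the 4 libraries, however, type 1 dendritic cells were below monocytes. The 89 keratinocyte-like cells, all in library 1, had 203.1 CPM. Plasmacytoid dendritic cells had 7.451 CPM, the lowest level among these types. 

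In each of the 6 types that all 4 libraries held, Cxcl16 was highest in library 1. Of the 10 finer groups held by all 4, 9 were highest in library 1. The exception was neutrophils with Cd274 and no Retnlg, highest in library 2 and lowest in library 1. Macrophages had 737.8 CPM in library 1 [723.1 to 752.7], 329.2 CPM in library 2, 253.9 CPM in library 3 [225 to 285.5] and 242.2 CPM in library 4 [231.1 to 253.7], so that libraries 3 and 4 were not apart. Monocytes had 610.3, 184.1, 157.2 and 101.6 CPM. Type 1 dendritic cells had 340.7, 139.4, 104 and 69.7 CPM, and fibroblasts 88.44, 54.83, 38.29 and 19.93 CPM. Library 1 also had the highest levels in neutrophils and T cells, at 47.87 and 32.27 CPM, and library 4 was the lowest in 5 of the 6 types. Library 1 also held nearly all tumour cells, whose part in this was not tested. Inside the types it was the deepest library for macrophages, with a median of 10747 UMIs, and the shallowest for fibroblasts, monocytes, neutrophils and type 1 dendritic cells. After thinning, the share of macrophages with a UMI was still 48.88% in library 1 against 26.24%, 20.94% and 18.91% in libraries 2 to 4.

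Macrophages stood above monocytes in all 4 libraries, by a ratio of 1.209 [1.089 to 1.345], 1.789 [1.598 to 2.007], 1.615 [1.392 to 1.871] and 2.384 [2.247 to 2.528]. The pooled ratio of 4.145 was larger than each of these, and library 1, where Cxcl16 was high in both types, held 1214 of 3077 macrophages and 111 of 4360 monocytes. Macrophages with Cd163, the haemoglobin scavenger receptor of tissue macrophages, had 582.9, 239.4, 202.5 and 188.4 CPM of Cxcl16 in libraries 1 to 4. Those with Arg1, the arginase of suppressive macrophages, and no Cd163 had 675.5, 445.3, 311.8 and 313.6 CPM, and those with neither gene 784, 447.8, 266.8 and 242.6 CPM. The Cd163 cells were the lowest group in each library, although the interval of their ratio to 1 of the other groups included 1 in libraries 1 and 3. Among monocytes, cells with no UMI of Chil3, a gene of classical monocytes, were above those with Chil3, with ratios of 1.731 [1.382 to 2.177], 1.528 [1.273 to 1.838] and 1.222 [1.136 to 1.314] in libraries 2 to 4.

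Cells outside the myeloid line also held Cxcl16. Tumour cells had 72.07 CPM [70.18 to 74.01] in library 1 and 38.69 CPM [34.59 to 43.14] in library 2, and gave 15.66% of its UMIs, while fibroblasts gave 11.74%. Pooled, tumour cells had 68.75 CPM and fibroblasts 38.9 CPM, but fibroblasts were above tumour cells in both libraries that held enough of each. Both pooled levels were below the 104.1 CPM over all cells, so each type gave less of Cxcl16 than of all UMIs. T cells, which carry its receptor, had 17.59 CPM. Shares of cells showed a different order, since 57.06% of tumour cells with a median of 19120 UMIs had a UMI against 35.67% of monocytes with 7952.5, and thinning brought them to 6.637% and 10.66%.

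Cxcr6, the receptor of CXCL16, was found mainly in T cells. The 1000 T cells held 77.06% of its UMIs, cells of 2 lineages 11.42% and cells of no lineage 5.566%. T cells had 310.4 CPM [295.5 to 326], NK cells 4.024 CPM [1.307 to 9.391], mature dendritic cells 1.592 CPM and neutrophils 1.076 CPM [0.6375 to 1.7]. The remaining types with at least 100 cells had at most 0.8775 CPM, and 57 basophils held 3 UMIs. Of T cells, 49.9% had a UMI, against 0.1681% of neutrophils and 0.6248% of fibroblasts, the deepest type with a median of 28988 UMIs. By library, T cells had 350.3 CPM in library 1 [323 to 379.3], 104.8 CPM in library 2 [83.61 to 129.8], 382.8 CPM in library 3 [354.4 to 412.8] and 274.8 CPM in library 4 [241.3 to 311.7]. Library 2 was the lowest, with 76 T cells, and the intervals of libraries 1 and 3 overlapped.

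The T cells were divided by their markers. Gamma-delta T cells had 701.7 CPM of Cxcr6 [588.7 to 830], and 90.24% of the 41 cells had a UMI. CD8 T cells, the cytotoxic lineage, had 389.1 CPM [356.6 to 423.9], with 230 of the 248 cells in library 1. CD4 T cells had 101.5 CPM in library 1 [48.65 to 186.6], 143.8 CPM in library 2 [107.4 to 188.6], 494.4 CPM in library 3 [446.8 to 545.6] and 263.8 CPM in library 4 [225.5 to 306.7]. T cells in which neither Cd4 nor Cd8 was detected had 348.4 CPM, and their median depth of 2532.5 UMIs was the lowest of these groups. Regulatory T cells, marked by Foxp3, were the lowest with 54.09 CPM [39.88 to 71.72] and with 52.07, 24.72 and 82.13 CPM in libraries 1 to 3, below the CD4 T cells of the same library in each, with overlapping intervals in library 1.

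Cxcr4 had another order over the T cells. CD8 T cells had 22.19 CPM of Cxcr4 [14.97 to 31.68] and regulatory T cells 240 CPM [208.9 to 274.5]. CD4 T cells had 233.3, 149.3, 176.5 and 84.29 CPM in libraries 1 to 4. Regulatory T cells had 286.4, 184 and 309.4 CPM in libraries 1 to 3, and their ratio to CD4 T cells had an interval above 1 in library 3 alone, at 1.753 [1.356 to 2.261]. Gamma-delta T cells were high in both receptors, with 412.8 CPM of Cxcr4 [327.3 to 513.7]. T cells without Cd4 or Cd8 had the same pooled level of Cxcr4, 412.8 CPM [367.9 to 461.5], with 170.6, 568.6 and 169.4 CPM in libraries 1, 3 and 4.

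Cell by cell, 66.94% of the 248 CD8 T cells had Cxcr6 without Cxcr4, 5.645% had Cxcr4 without Cxcr6 and 3.629% had both. Regulatory T cells, with the libraries pooled, were mostly on the other side, with 54.89% of 133 cells for Cxcr4 alone and 4.511% for Cxcr6 alone. Library 1 held 230 of the 248 CD8 T cells but 25 of the regulatory T cells. Of those 25 cells, 32% had Cxcr4 alone, 8% Cxcr6 alone and 56% neither. Among 327 CD4 T cells, 24.77% had both, 29.66% Cxcr6 alone and 18.04% Cxcr4 alone. Gamma-delta T cells had both in 43.9%. Of 211 NK cells, 34.6% had Cxcr4 alone and 0.4739% Cxcr6 alone. A cell without a UMI may still hold the transcript at these depths, so a share with 1 receptor alone is not a share of cells that lack the other.

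**Figure D5:**
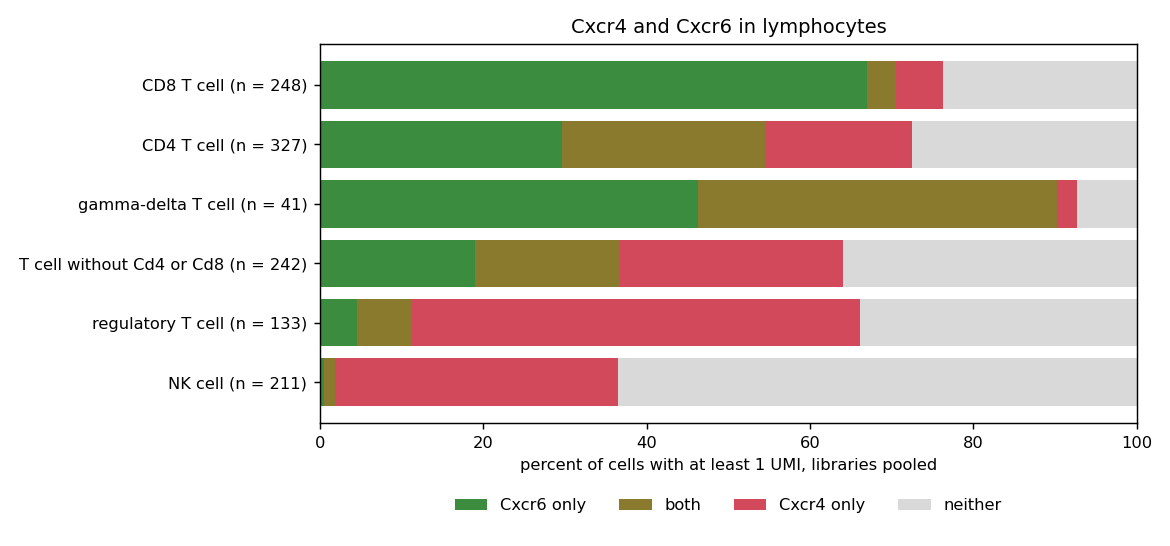
Percent of cells of each lymphocyte group with at least 1 UMI of Cxcr6 only, both receptors, Cxcr4 only or neither, libraries pooled, with the number of cells. CD8 T cells are mostly Cxcr6 only (66.94%), regulatory T cells mostly Cxcr4 only (54.89%), and gamma-delta T cells have the largest share with both (43.9%). In library 1, which holds 230 of the 248 CD8 T cells, 32% of 25 regulatory T cells are Cxcr4 only.

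Within the CD8 T cells of library 1, the 167 cells with a Cxcr6 UMI were compared with the 63 cells without, at median depths of 4637 and 4278 UMIs. Cells with Cxcr6 had more Gzmb, the cytotoxic protease granzyme B (415.4 against 245.7 CPM, ratio 1.691 [1.327 to 2.178]), and of the chemokine gene Ccl4 (1722.4 against 1084.3 CPM). Pdcd1, which encodes PD-1, was at 713.7 against 580.5 CPM, and Havcr2, which encodes TIM-3, at 68.02 against 27.64 CPM. Of the 4 genes of naive and recirculating T cells with more than 3 UMIs on both sides, 3 were lower in the cells with Cxcr6, and Il7r was at 218.7 against 181.2 CPM. Tcf7 was at 7.325 against 43 CPM (ratio 0.1703 [0.05818 to 0.451]), Klf2 at 728.3 against 1093.5 CPM, and Ccr7 at 57.55 against 110.6 CPM. Cxcr4 was at 8.371 against 39.93 CPM (ratio 0.2096 [0.07533 to 0.5457]), on 8 and 13 UMIs. Cd69, a gene of early activation and residency, was also lower in the cells with Cxcr6, at 692.7 against 936.8 CPM. Itgae, at 8.371 against 12.29 CPM, and Bhlhe40, at 588.1 against 635.8 CPM, were lower with intervals of the ratio that included 1. Of the 12 residency and exhaustion genes with more than 3 UMIs on both sides, 9 were higher with Cxcr6, 7 with intervals above 1. The share of all genes higher or lower in the cells with Cxcr6 was not computed, so both counts are descriptions alone.

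The residency and exhaustion genes also went both ways in CD4 T cells. Of the 9 genes with more than 3 UMIs on both sides, 3 were higher with Cxcr6 in library 3 (100 and 69 cells), with a median ratio of 0.8922, and 6 in library 4 (55 and 39 cells), with a median ratio of 1.035. The share of all genes higher with Cxcr6 was not computed here either, so these counts do not set the list apart. The split gave 265.2 against 136.4 CPM of Gzmb in library 3 and 848.7 against 334.3 CPM in library 4. Nkg7, a gene of cytotoxic granules, was at 167.2 against 53.85 CPM in library 3 and at 269 against 114.6 CPM in library 4. Lower with Cxcr6 in library 3 were Ccl4, at 161.4 against 258.5 CPM, and Rgs2, at 447.7 against 664.1 CPM. In library 4 Ccl4 went the other way, at 241.2 against 124.2 CPM (ratio 1.942 [1.254 to 3.111]). There Rgs2 was at 336.2 against 324.8 CPM, with an interval that included 1, and Cd69 was lower at 674.8 against 840.6 CPM. Over all T cells, a wider set, library 2 (31 and 45 cells) had Gzmb at 126.2 against 491 CPM and Nkg7 at 24.74 against 67.98 CPM. On that wider set, Gzmb was at 424.2 against 439.6 CPM in library 1 (204 and 154 cells) and at 445.4 against 417.5 CPM in library 3. The intervals of these ratios included 1, at [0.8301 to 1.123] and [0.9228 to 1.234]. In library 4 Gzmb was at 914.4 against 744.6 CPM. Nkg7 was at 2293.4 against 1271.5 CPM in library 1, 149.6 against 29.07 CPM in library 3 and 260.3 against 109.5 CPM in library 4. In CD4 T cells, Tcf7 was at 207.5 against 298 CPM in library 3 and at 99.71 against 234 CPM in library 4. Their ratio of Cxcr4 was 0.7227 [0.5112 to 1.027] in library 3 and 1.057 [0.5803 to 2.001] in library 4, with intervals that included 1. The cells with Cxcr6 were deeper, with medians of 4740.5 against 3004 UMIs in library 3 and 6326 against 4961 UMIs in library 4. The libraries did not share every gene: Klf2 was at 611.1 against 592.3 CPM in library 3 and at 248.1 against 463.3 CPM in library 4, and Lef1 was higher with Cxcr6 in library 3 and lower in library 4.

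Other genes of the axes were taken from fixed lists, and a gene was counted as present when it passed 10 CPM in a cell type with at least 100 cells. How many of all genes pass this level was not computed, so the counts of present genes do not set the lists apart. Of the ligands and partners of the CXCL12 receptors, 7 of 7 were present. Cxcl14, a chemokine of fibroblasts that can bind CXCR4, was led by fibroblasts with 1414.2 CPM, and its levels of 2385.3, 1641, 1616.7 and 902.9 CPM in libraries 1 to 4 had library 1 highest, unlike Cxcl12. Cxcl11, the further chemokine ligand of ACKR3, reached 42.3 CPM in endothelial cells. Mif, a cytokine that can signal through CXCR4, had 1413.4 CPM in tumour cells and 1338.8 CPM in fibroblasts, while its receptor gene Cd74 had 20893.6 CPM in type 2 dendritic cells.

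Of the enzymes that cut CXCL12 or shed CXCL16, 6 of 8 were present. Mmp2 and Mmp14, metalloproteases of the matrix, were led by fibroblasts with 622.7 and 366.8 CPM, the type that held Cxcl12, and Mmp9 by neutrophils with 892.4 CPM. Dpp4, the peptidase that inactivates CXCL12, was highest in type 1 dendritic cells with 121.1 CPM. The sheddases of CXCL16 were Adam10, with 140.6 CPM in endothelium, and Adam17, with 212.6 CPM in neutrophils. In macrophages, where Cxcl16 was highest in library 1, Adam10 was at 53.06, 89.75, 80.09 and 77.62 CPM and Adam17 at 82.28, 139, 155.6 and 130.7 CPM, lowest in library 1. This was not particular to the sheddases. Of the enzyme genes that reached 10 CPM in a library, 4 of 5 were lowest in library 1 in macrophages, in monocytes and in neutrophils. In fibroblasts and in T cells it was 2 of 6. The share of all genes lowest in library 1 was not computed, so these counts are descriptions alone. The neutrophil serine protease genes Elane and Ctsg stayed at or under 0.8049 CPM in each of the types with at least 100 cells.

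Of 16 symbols for signalling and turnover below the receptors, 14 were in the matrix and 14 were present. Gnai2, the inhibitory G protein subunit, was highest in endothelium with 1898.2 CPM. Arrb2, an arrestin that binds activated chemokine receptors, was highest in macrophages with 179.4 CPM. Rgs1, a brake on chemokine receptor signalling, was led by macrophages with 943.2 CPM, and Rgs2 by T cells with 679.3 CPM. Among the 10 fibroblast niche genes, all of which were present, Il6 in fibroblasts was at 41.02, 360.5, 190.5 and 120.4 CPM in libraries 1 to 4. Library 1 was the lowest for Il6 as for Cxcl12, whereas Thy1 was highest there at 692.1 CPM against 186.9 to 281.1 CPM, and 5 of the 9 niche genes above 10 CPM in fibroblasts were lowest in library 1. Of 14 genes of T cell residency and exhaustion, 12 were present, and 10 of the 12 had their highest T cell level in library 1, which held 230 of the 248 CD8 T cells. Within CD4 T cells, 3 of 11 such genes were highest in library 1 and 4 in library 4. Of the 7 genes of naive and recirculating T cells, 7 were present, and 5 had their highest T cell level in library 3. The share of all genes highest or lowest in each library was not computed, so these library counts are descriptions alone.

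For each of the 5 genes, the genes with the most similar levels over the 41 profiles were listed by Pearson r of log2(CPM + 10) among 7818 genes. The values carry no test, since profiles of 1 library are not independent. Most like Cxcl12 were Plpp3 and Fstl1, both with r = 0.927, then Grb10 (0.924), Gpx7 (0.900) and Fkbp10 (0.886), each highest in fibroblasts. Ackr3 had Wipi1 (0.862), Fkbp11 (0.858), P4ha2 (0.852), Fbln2 (0.851) and Ptgfrn (0.837), also each highest in fibroblasts, and none of them was on the list of Cxcl12. For Cxcr4 they were Lfng (0.894), Lcp2 (0.845), Tnfrsf1b (0.841), Gna13 (0.840) and Mxd1 (0.832), with their highest levels in neutrophils or T cells. The list of Cxcl16 had lower values, with Guca1a (0.841), Cd40 (0.789), Pgap2 (0.784), Sowahc (0.778) and Anxa4 (0.775). Cxcr6 had the highest, with Cd6 (0.982), Themis (0.968), Gm8369 and A430093F15Rik (both 0.963) and Tnfrsf4 (0.957), each highest in T cells. Between the ligands and their signalling receptors r was -0.36 for Cxcl12 and Cxcr4 and -0.34 for Cxcl16 and Cxcr6.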

How the data were processed

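Single cells of 4T1 tumours were sequenced on the 10x Genomics platform. The authors deposited the UMI counts of 55450 genes in 33064 barcodes as 1 unnormalised matrix, made with Cell Ranger, which aligned reads, called cells and counted UMIs. The extract protocol names version 3.0.2, the matrix header 6.1.2 and the submitters' processing notes 2.1.1 and mm10. All 55450 identifiers matched GENCODE vM21, from which coordinates were taken. No columns of other samples were present (0 not used).

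No source used here links the 4 barcode suffixes to the samples, so no groups were compared and no test was run. Cells with at least 300 genes and at most 15% mitochondrial UMIs were kept. Each cell was scored on fixed markers of 19 lineages (UMIs scaled to 10000 per cell, at least 2 markers detected). It was given the highest lineage if its score, relative to the cell ranked 20, reached 0.3; 3205 cells whose runner-up reached 0.5 of the best score were left out as possible doublets, and 3095 cells had no lineage. This rule was set after the data were seen, and none of the 5 genes entered it. CPM is the UMIs of a gene per 1000000 UMIs summed over a type, with exact Poisson intervals; shares have Clopper-Pearson intervals, also after thinning to 1000 UMIs per cell. Library values need 20 cells, except the endothelial states, which were pooled. Genes of like pattern reached 50 CPM in a profile and were ranked by r on log2(CPM + 10), the top 5 for each gene. The text names the 5 genes, these, and the leading genes of 8 fixed lists. The genes and lists were chosen with earlier results of these data known. Alternatives were other cell filters, a stricter gate, Leiden clusters (scanpy 1.11.5), removal of the top 5% of Scrublet scores, mean over cells, 2 UMIs for detection, other correlation settings and leaving out each library. The steps were tested on simulated data (Python 3.11.15, numpy 2.4.6, scipy 1.17.1, pandas 2.3.3).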

Additional observations from a re-analysis of the deposited data

How the results depend on the processing

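Of 103 recomputed values, 54 moved by less than their 95% interval (or, for the lists of like genes, kept their number within 1.5 times) and 49 moved by more. The intervals cover counting error only. Types named from Leiden clusters gave 807.6 CPM of Cxcl12 in fibroblasts and 292.4 CPM of Cxcr6 in T cells. A mean over cells gave 960.3 CPM of Cxcl12 and 200.7 CPM of Ackr3 in fibroblasts, 277.3 CPM of Cxcr4 in neutrophils and 338.4 CPM of Cxcr6 in T cells. With at least 500 genes, 30.23% of neutrophils had Cxcr4. Thinning to 1000 UMIs lowered the shares to 45.67% (Cxcl12), 17% (Ackr3), 18.63% (Cxcr4), 53.27% (Cxcl16, mature dendritic cells) and 21.97% (Cxcr6), and asking for 2 UMIs to 85.54%, 61.26%, 12.33% and 33.7% for Cxcl12, Ackr3, Cxcr4 and Cxcr6. Of the 25 genes of like pattern, 13 were shared with a pseudocount of 1 CPM, 10 with Spearman correlation and 6 with the libraries pooled, so these lists depend on the measure. Leaving out 1 library at a time gave 773.5 to 940.8 CPM and 89.65% to 93.91% for Cxcl12 in fibroblasts, 129.6 to 209.6 CPM and 70.79% to 78.93% for Ackr3 in fibroblasts, 207.8 to 287.2 CPM and 23.71% to 32.01% for Cxcr4 in neutrophils, 510.4 to 831 CPM and 72.73% to 90.2% for Cxcl16 in mature dendritic cells, 273.3 to 348.1 CPM and 45.95% to 54.07% for Cxcr6 in T cells, and 11 to 18 shared genes of like pattern. The value of 510.4 CPM is that of the 33 mature dendritic cells left without library 3, so the level of that type rests on library 3. No paired analysis was possible because no library could be tied to a sample and no groups were tested. Depth limits the shares in neutrophils most, whose median was 1815 UMIs.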

Other observations

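Low oxygen is known to induce Cxcr4 as well as the hypoxia genes of a fixed list, which had their own pattern over the libraries. All 9 passed 10 CPM in a cell type. In neutrophils, 9 of the 9 were highest in library 1, where neutrophil Cxcr4 was lowest. The share of all genes highest in the neutrophils of library 1 was not computed. The count is therefore a description of the list, and its relation to Cxcr4 was not tested. Slc2a1, the glucose transporter GLUT1, was at 528.2, 245, 198.7 and 249.6 CPM in libraries 1 to 4. Ldha, lactate dehydrogenase, was at 1972.3, 689, 631.2 and 623.6 CPM, and Bnip3, a gene of mitophagy, at 434, 300.8, 196.5 and 204.5 CPM. In macrophages the same genes were highest in library 1 in 3 of 9 and in library 3 in 4 of 9, so the pattern was not shared by that type. Monocytes had 4 of 8 such genes highest in library 1.

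Of the genes of neutrophil age and retention, 5 of 5 passed 10 CPM. Circulating neutrophils are known to gain Cxcr4 and lose Cxcr2 as they age. Cxcr2 was at 296, 530.9, 463.4 and 1078.9 CPM in the neutrophils of libraries 1 to 4, highest in library 4 and lowest in library 1. Icam1 was at 188.3, 503.3, 775.2 and 297 CPM and Cd24a at 647.1, 784.1, 1081.1 and 557.4 CPM, both highest in library 3, which was also highest for Cxcr4. With 4 libraries of unknown treatment these orders are descriptions, and no relation between them was tested.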
